A study of Mus musculus with 9 samples.

Results

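Oxidative phosphorylation (OXPHOS) genes were followed in cultured AdvSca1-SM cells, the Sca1+ progenitors of the arterial adventitia that descend from mature smooth muscle cells. The members were the subunit genes of complexes I to V, found by their symbols: Nduf subunits, Sdh, Uqcr, Cox4 to Cox8 and Atp5 genes of the nucleus, and the mt-Nd, mt-Cytb, mt-Co and mt-Atp genes of the mitochondrial DNA, without symbols that mark pseudogenes. This gave 98 genes, 85 nuclear and 13 mitochondrial, of 55416 genes in the count table. The Atp5 genes are given by their older symbols, so that Atp5g1, for example, is the gene now called Atp5mc1.

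The cells had been sorted by FACS from aortas and carotid arteries, pooled over SM22α-Cre-YFP mice, in which a smooth muscle promoter drives Cre, and were subcultured before the experiment. Growth arrest for 24 h in 0.1% serum with bFGF and EGF was taken to apply to all groups. The paper's cell culture methods describe it before the serum, TGF-β1 and PFI-3 treatments and do not state it for Stem. All cells then received 0.1% DMSO for 72 h. Stem libraries came from vehicle-treated cells kept in stem cell medium, which the paper describes as αMEM with 10% serum, bFGF and EGF. TGF-β libraries came from cells switched to DMEM with 0.1% serum and 5 ng/mL TGF-β1. Both libraries came from cells given the same medium, the same dose of TGF-β1 and 50 μM PFI-3, an inhibitor of the bromodomain in Brg1, the ATPase of the SWI/SNF chromatin remodeling complex. Each group had 3 libraries of ribosome-depleted total RNA, which the study describes as independent replicates. Since the mice were pooled and no animal or culture is named for a library, p-values measure the spread between these libraries. The medium and its serum changed together with TGF-β1 between Stem and TGF-β, so their effects cannot be told apart. The same holds for the growth arrest, if Stem did not have it. TGF-β and Both differed by PFI-3 alone.

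Complexes I to IV pass electrons from NADH and succinate to oxygen, complexes I, III and IV pump protons across the inner mitochondrial membrane, and complex V, the ATP synthase, uses that gradient to make ATP. Complex II is built from nuclear genes alone, whereas the other complexes join many nuclear subunits to a core that the mitochondrial DNA encodes. The nuclear genes are transcribed one by one, but the mitochondrial genes are cut out of long precursors that span nearly the whole molecule, so their levels are not independent of each other. Vascular cells rely on glycolysis as well as on OXPHOS, and mitochondrial metabolism is known to change as cells become contractile, matrix-producing myofibroblasts.

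The libraries held 35686291 to 47741128 counts on genes. Within a group, every pair of libraries had a Spearman correlation of at least 0.9947 across genes, and the biological coefficient of variation was 6.13%. The replicate 2 library of Stem had 4.95% of its counts on genes without a symbol, against 0.603% to 2.53% in the other libraries. Among the Stem libraries, this library was the lowest for 47 of 90 OXPHOS genes tested (52.2%) and for 39.1% of all genes tested. Summed levels of the 4 AdvSca1-SM progenitor markers ranged over 50475 to 58767 normalized counts in Stem, over 6361 to 6638 in TGF-β and over 6784 to 7423 with PFI-3 added, and those of the 5 myofibroblast markers were lowest in Stem and highest in TGF-β. Pdgfra made up most of the progenitor sum, with means of 45657, 5438 and 6268 in Stem, TGF-β and Both. Ly6a, the gene of Sca1, had 7635, 941 and 734, and Cd34 had 379, 20.8 and 13.4. Both were lower with PFI-3 added than in TGF-β, without a call. Mature smooth muscle markers summed to 2531 to 3742 in all libraries. Leukocyte markers summed to 19.6 to 41.9 in Stem, 71.0 to 103 in TGF-β and 152 to 156 in Both, with Adgre1 and Itgam at 0. Striated muscle markers, mostly Tnnt2, summed to 1199 to 1525 in Stem and 117 to 184 elsewhere, with Ckm, Myh4 and Myh6 at 0. Endothelial, hepatocyte, adipocyte and germ cell markers each summed to under 70 normalized counts. The part of these markers in the results was not tested. Bulk RNA cannot tell fewer cells of a type from less RNA per cell.

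Shared sequence limits how well some of the mitochondrial members can be measured. Nuclear copies of mitochondrial DNA carry stretches that are letter for letter the same as the genes they came from, and reads from such a stretch cannot be placed by their sequence. Of the 100-base windows of each mitochondrial transcript, the share found in another annotated gene was 99.9% for mt-Co3, 99.5% for both mt-Co2 and mt-Atp6, 98.5% for mt-Nd4l and 97.6% for mt-Nd3. It was 60.8% for mt-Nd4, 30.8% for mt-Co1, 3.19% for mt-Nd2 and 0% for mt-Nd1, mt-Nd5, mt-Nd6, mt-Cytb and mt-Atp8. The opening of mt-Co2 (bases 1 to 90 of its transcript) and of the nuclear copy Gm28661 is shown first, to display a stretch without any difference. The mt-Co1 stretch (bases 1054 to 1143) and the opening of the copy Gm29216 follow, with the 6 bases that differ in capitals. All 4 were read from the GENCODE transcripts of the GRCm38 build.
mt-Co2: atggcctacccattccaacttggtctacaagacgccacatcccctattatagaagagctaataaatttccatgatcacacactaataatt
Gm28661: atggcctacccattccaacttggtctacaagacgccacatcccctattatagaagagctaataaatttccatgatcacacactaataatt
mt-Co1: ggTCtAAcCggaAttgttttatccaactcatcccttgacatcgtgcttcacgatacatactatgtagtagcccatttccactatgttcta
Gm29216: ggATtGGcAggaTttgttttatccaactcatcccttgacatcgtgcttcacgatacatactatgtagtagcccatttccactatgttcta

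The pair mt-Co2 and Gm28661 had 0 mismatches over 681 aligned bases, and mt-Co1 and Gm29216 had 6 over 492. Levels per length were set beside these shares. On the scale of normalized counts per kilobase of transcript, where normalized counts are counts scaled to a common library size, mt-Co1 had a mean level of 68985 in TGF-β, mt-Nd1 33717, mt-Cytb 19177 and mt-Nd4 8245. The members with nearly every window shared were far lower, with mt-Nd3 at 600, mt-Co3 at 362, mt-Co2 at 293, mt-Atp6 at 281 and mt-Nd4l at 12.8. Genes cut from the same precursor thus differed over 100-fold in counted reads, and mt-Co1, mt-Co2 and mt-Co3 encode subunits of the same enzyme core. How reads with several matches were handled is not given in the sources used here, and the fold changes of these 5 members and of mt-Nd4 are uncertain. The gene mt-Atp8 was also low, at 87.7 per kilobase, with no shared window. It is 204 bases long, and mt-Atp6 overlaps 21.1% of it.

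**Figure D1:**
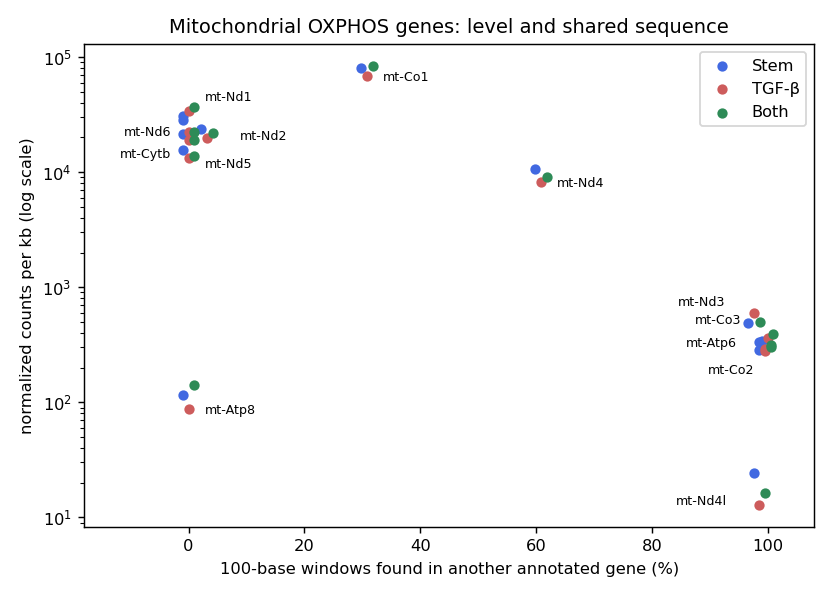
Mean level of each mitochondrial OXPHOS gene in the 3 groups (normalized counts per kilobase, log scale) against the percent of its 100-base windows found in another annotated gene. Stem points are drawn 1 percentage point to the left and Both points 1 to the right so that they can be seen apart. The genes at 97.6% or more lie below 1000, and the others lie above them except mt-Atp8.

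Of the 98 members, 90 passed the filter on low counts and were tested, 78 nuclear and 12 mitochondrial. The members left out were mt-Nd4l and 7 nuclear genes: Cox4i2, Cox6c2, Cox7a1, Cox7b2, Cox8b, Cox8c and the second of 2 identifiers of Atp5o. Among the nuclear genes tested, the median level per kilobase in TGF-β was 1284 for complex I, 1563 for complex II, 2220 for complex III, 4625 for complex IV and 2842 for complex V.

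Between Stem and TGF-β, most nuclear OXPHOS genes were higher in TGF-β, and 6 of 12 mitochondrial genes tested were lower. A gene was called where its adjusted p was below 0.05 in the quasi-likelihood test of edgeR, adjusted by Benjamini-Hochberg over 14879 genes. Of the 90 members tested, 60 rose, 12 fell and 18 were not called. Of all genes tested, 37.3% rose, 37.7% fell and 75.0% were called in either direction, so that a call in itself was common here. Groups without overlap were common too, for 80% of the members and 76.8% of all genes tested. Among the 78 nuclear members, 59 rose (75.6%), 6 fell and 13 were not called, with a median log2 fold change of 0.36 (SD of the 3 TGF-β libraries 0.03), where the median of all genes was near 0 (-0.003). Among the 12 mitochondrial members, 1 rose, 6 fell and 5 were not called, with a median of -0.21 (SD 0.07). Members that rose made up 83.3% of the calls, or 71.4% (45 of 63) when libraries were scaled to total counts, which moved the median of all genes by -0.12.

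Transcript length and GC content moved with this difference. Nuclear members had a median transcript length of 849.5 bases and a median GC content of 51.4%, the mitochondrial members 870.5 bases and 36.5%, and all genes tested 2919 bases and 49.7%. Over all genes, the median change from Stem to TGF-β on the log2 scale was 0.36 for the 1146 with transcripts under 1 kb, 0.15 from 1 to 2 kb, -0.03 from 2 to 4 kb and -0.14 over 4 kb. The 46 nuclear members under 1 kb had a median of 0.39, the 25 from 1 to 2 kb 0.24, the 5 from 2 to 4 kb -0.03 and the 2 over 4 kb 0.62. By GC content, all genes under 45% had a median of -0.18 those from 45% to 50% -0.01, those from 50% to 55% 0.08 and those at 55% or more 0.11. In these 4 classes the nuclear members were higher, with medians of 0.26, 0.38, 0.40 and 0.29, and all 12 mitochondrial members fell in the lowest class. The counts of each library were then corrected for a smooth trend on GC content and length, a setting chosen after seeing the data. The median of the nuclear members went from 0.36 to 0.02, with 30 higher, 19 lower and 29 not called. In that fit 37.2% of all genes tested were called higher and 37.1% lower, against 38.5% and 24.4% of the nuclear members. Of the 59 that rose, 28 stayed higher and 6 were then lower. The median of the mitochondrial members went from -0.21 to 0.30, with 8 higher, 1 lower and 3 not called. The broad direction of neither genome held with this correction, and the cause of the trend was not tested.

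**Figure D2:**
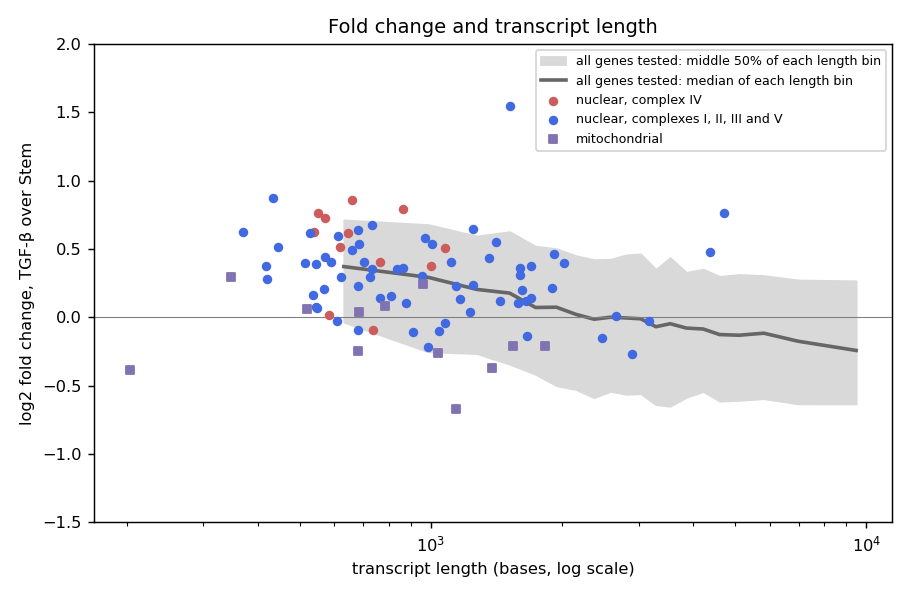
Log2 fold change from Stem to TGF-β against transcript length (bases, log scale) for the OXPHOS genes tested, except Cox6a2, beside all genes tested (line: median of each length bin; band: middle 50%). The median of all genes lies at 0.36 under 1 kb and falls with length. Nuclear members scatter around it at short lengths. Members above the band include Uqcrq at 1.54, Cox7a2 at 0.85, Cox5b at 0.79 and Atp5g1 at 0.76.

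By complex, the largest nuclear difference was in complex IV. There 11 of 13 members tested rose and 0 fell, with a median log2 fold change of 0.62. The corrected median was 0.29, with 10 of those 11 still higher and 2 of the 13, Cox6c and Cox6b2, called lower. Ndufa4, another complex IV subunit, is counted under complex I by its symbol. In complex I, 26 of 36 rose and 4 fell (median 0.32, corrected -0.01). In complex III, 7 of 8 rose and 0 fell (median 0.32, corrected 0.15). In complex V, 14 of 17 rose and 1 fell (median 0.35, corrected 0.08). Complex II had 1 of 4 higher and 1 lower (median near 0, corrected -0.10). The differences between complexes were not tested.

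**Figure D3:**
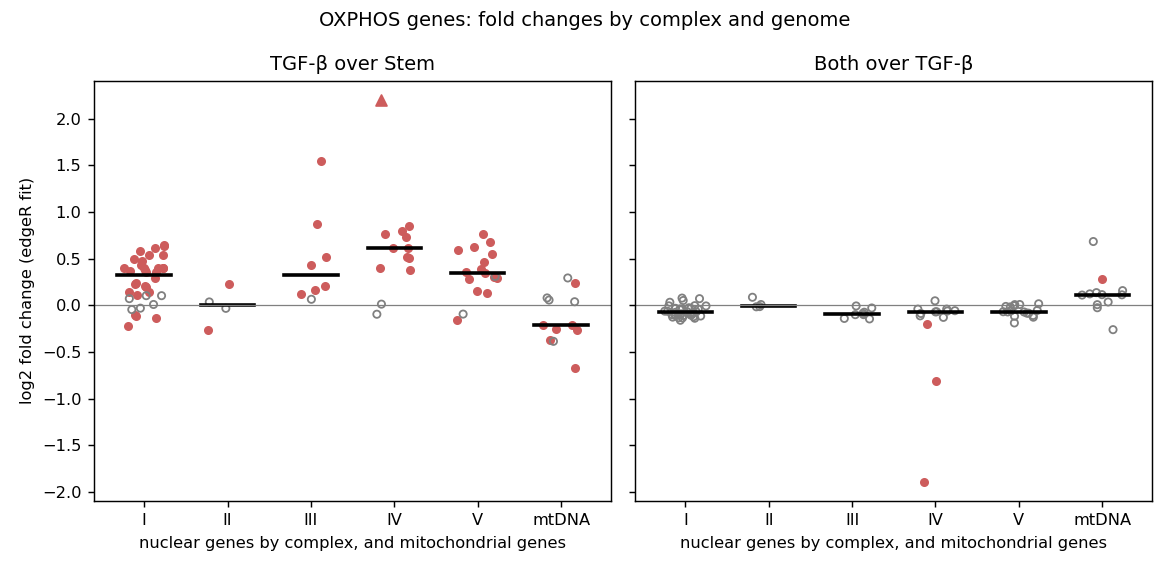
Log2 fold changes from the edgeR fit for nuclear OXPHOS genes by complex and for mitochondrial genes (mtDNA), TGF-β over Stem at left and Both over TGF-β at right. Filled points have an adjusted p below 0.05, open points do not, black lines are medians, and the triangle marks Cox6a2, which was at 0 in Stem and lies beyond the axis. At left the complex IV median is 0.62 and the mtDNA median -0.21, and at right the medians lie between -0.09 and 0.11.

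Complex I, the NADH dehydrogenase, had moderate changes in both directions. Ndufc1, an accessory subunit of the membrane arm, had 574, 731 and 629 normalized counts in Stem against 1027, 1046 and 955 in TGF-β, a log2 fold change of 0.65 (SE 0.08) that was 0.61 after the correction. Ndufs5 rose by 0.64 (SE 0.07, corrected 0.34). The groups did not overlap for either gene. Ndufs7, a core subunit that carries an iron-sulfur cluster, fell from 1005, 1155 and 1119 to 938, 974 and 912, by 0.22 on the log2 scale (SE 0.06, adjusted p = 0.00643 in edgeR's quasi-likelihood test). Ndufv1, the flavin-bearing subunit that accepts electrons from NADH, fell by 0.13 (SE 0.04, adjusted p = 0.00709 in the same test), and was not called without TGF-β replicate 3 (-0.10, adjusted p = 0.059 in that edgeR fit). After the correction these 2 core subunits lay further below Stem, at -0.62 and -0.40. Ndufa4, which carries a complex I symbol but is a subunit of complex IV, was at -0.03, and was called lower after the correction (-0.24). Its paralog Ndufa4l2, which lies outside the rule for members, had 5.23, 10.9 and 7.57 normalized counts in the Stem libraries, 101, 177 and 112 after TGF-β1, and 77.4, 121 and 93.0 with PFI-3 added. It rose by 4.03 on the log2 scale from Stem to TGF-β (adjusted p = 4.77e-07 in edgeR's quasi-likelihood test), beyond every member with counts in Stem.

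Complex II, the succinate dehydrogenase that also serves the tricarboxylic acid cycle, was split. Sdha, its flavoprotein, had 9691, 9395 and 9507 normalized counts in the Stem libraries, 7931, 7754 and 8062 in the TGF-β libraries, and 8479, 8364 and 8392 in the Both libraries. It fell by 0.27 on the log2 scale from Stem to TGF-β (SE 0.03, adjusted p = 1.49e-05 in edgeR's quasi-likelihood test) and by 0.23 after the correction. Every TGF-β library was below every Stem library. Sdhb, the iron-sulfur subunit, rose by 0.23 (SE 0.04, adjusted p = 0.000527 in the same test), but was not called with total counts as the scale (0.11) and was at -0.09 after the correction. The membrane anchors Sdhc and Sdhd were at -0.03 and 0.04, with overlapping groups and no call, but Sdhc was called lower with total counts as the scale (-0.15).

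Complex III, the cytochrome bc1 complex, held the member with the most distinct rise. Uqcrq, a small accessory subunit, had 1266, 1108 and 1228 normalized counts in the Stem libraries, against 3519, 3508 and 3483 after TGF-β1 and 3126, 3266 and 3117 with PFI-3 added. The TGF-β libraries were close to each other and all far above Stem, with a log2 fold change of 1.54 (SE 0.05, adjusted p = 4.43e-11 in edgeR's quasi-likelihood test) that was 1.44 after the correction. Uqcrq and Cox6a2 were the only members past 2-fold in this comparison, against 25.1% of all genes tested. Cox6a2 passed the filter on low counts through the TGF-β libraries alone, where it was high. Uqcr10, another small subunit, went from 430, 273 and 402 to 803, 572 and 655, a log2 fold change of 0.87 (SE 0.15) that was 0.30 and not called after the correction. Uqcrh, the hinge protein, was at 0.07 and not called. The nuclear subunits of this complex, which are assembled in equal numbers, thus had log2 fold changes from 0.07 to 1.54.

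Complex IV, cytochrome c oxidase, has several nuclear subunits with a ubiquitous form and a form known from muscle, lung or testis. The ubiquitous forms carried nearly all of the counts. Cox6a1 had means of 5720, 9482 and 9813 normalized counts per kilobase in Stem, TGF-β and Both, while Cox6a2, the form of heart and skeletal muscle, had 0, 38.6 and 10.4. Cox6b1 had 4286, 6130 and 5674, and Cox6b2, the testis form, 126, 127 and 72.1. Cox4i1 had 6556, 8687 and 7950, and Cox4i2, the lung form, 7.80, 5.09 and 1.67. Cox7a2 had 1271, 2300 and 2010, and the muscle form Cox7a1 3.58, 18.7 and 22.1. On the scale of normalized counts, Cox7b2 and Cox8c were at 0 in every library, Cox6c2 at no more than 1.08 and Cox8b at no more than 3.25. A count of 3, taken as the limit of detection, corresponds to 2.63 to 3.26 normalized counts.

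From Stem to TGF-β the ubiquitous forms of these pairs rose, except Cox6c. Cox6c, added after its values were seen, had 4206, 4438 and 4102 normalized counts in Stem against 3939, 4080 and 3921, a log2 fold change of -0.09 that was not called, although the groups did not overlap, and a corrected value of -0.36 that was called. Cox7a2 went from 868, 830 and 815 normalized counts to 1554, 1540 and 1452, a log2 fold change of 0.85 (SE 0.05, adjusted p = 6.7e-09 in edgeR's quasi-likelihood test, corrected 0.51). Cox8a rose by 0.76 (corrected 0.21), Cox6a1 by 0.73 (corrected 0.18), Cox6b1 by 0.52 (corrected 0.18), Cox7a2l, which joins complexes into supercomplexes, by 0.51 (corrected 0.31), Cox7b by 0.38 (corrected 0.41) and Cox4i1 by 0.41 (corrected -0.07). In all of these genes, the 3 TGF-β libraries lay above the 3 Stem libraries. Groups did not overlap, in either direction, for 76.8% of all genes tested. Cox6b2, with 62.8, 81.5 and 76.8 normalized counts in Stem against 80.9, 77.1 and 65.4 in TGF-β, overlapped and was not called (0.01). Its corrected value was -0.50, which that fit called. Cox6a2 had no count in Stem and 14.0, 31.4 and 33.2 normalized counts in TGF-β. Measured against 3 counts per Stem library, its TGF-β mean was at least 8.15-fold higher. The level remained low, since 78 reads in all supported it, and the gene passed the filter on low counts through the TGF-β libraries alone. Itgad overlaps 10.3% of the Cox6a2 transcript on the opposite strand and had 0 counts.

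In complex V, the genes of the proton-conducting ring rose, while those of the catalytic head were split. The ring is built from a protein c that is encoded by Atp5g1, Atp5g2 and Atp5g3, whose mature proteins are the same. Atp5g1 had 1056, 961 and 1043 normalized counts in Stem against 1786, 1724 and 1678 in TGF-β, a log2 fold change of 0.76 (SE 0.06, corrected 0.85). Atp5g2 rose by 0.67 (SE 0.05, corrected 0.20), and Atp5g3 by 0.29 (SE 0.05, corrected near 0). For each of the 3 genes, all TGF-β libraries lay above Stem. Per kilobase, Atp5g3 was the highest of the 3 with 4404 in Stem and 5391 in TGF-β, Atp5g2 had 1445 and 2307, and Atp5g1 216 and 367. Atp5a1, the α subunit of the head, was the 1 nuclear member of the complex that fell, from 19938, 20167 and 19898 to 17836, 18098 and 18099. The decrease was small, with a log2 fold change of -0.15 (SE 0.03, adjusted p = 0.00178 in edgeR's quasi-likelihood test), and stayed at -0.15 after the correction. Atp5b, its catalytic β subunit, which was added after its values were seen, rose from 17018, 16527 and 16810 to 23022, 23288 and 23245, by 0.47 on the log2 scale (SE 0.03, corrected 0.40). Atp5e, the ε subunit of the central stalk, rose by 0.28 (corrected -0.27).

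**Figure D4:**
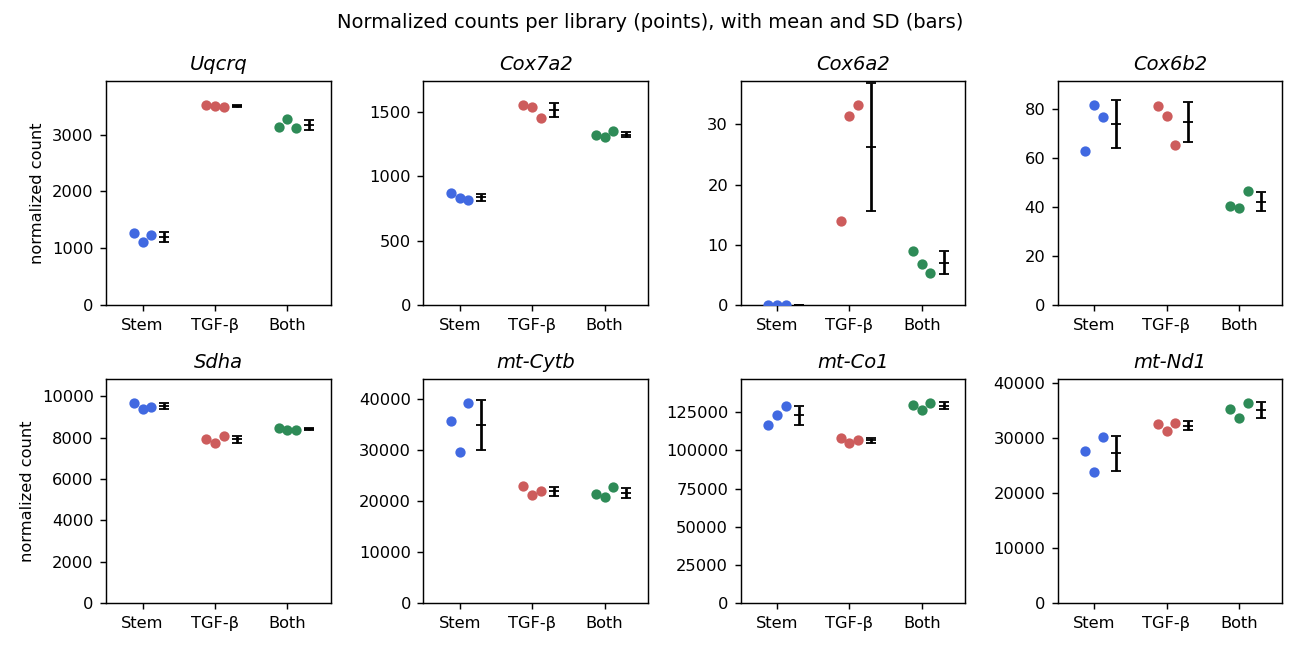
Normalized counts in each library (points) for 8 OXPHOS genes, with the mean and SD of each group (bars). Uqcrq and Cox7a2 are low in the 3 Stem libraries and mt-Cytb is high there. TGF-β and Both do not overlap for any gene shown except mt-Cytb.

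The mitochondrial genes were considered next, in the order in which they lie on the heavy-strand precursor. The 2 rRNAs at its start, mt-Rnr1 and mt-Rnr2, had log2 fold changes from Stem to TGF-β of -0.15 (adjusted p = 0.0242) and -0.17 (adjusted p = 0.00702) in edgeR's quasi-likelihood test. They are the targets of ribosomal depletion and still took means of 14.1%, 11.6% and 13.9% of all counts in Stem, TGF-β and Both. Next to them, mt-Nd1, a membrane subunit of complex I, was the only mitochondrial member that rose. It had 27684, 23792 and 30226 normalized counts in Stem against 32592, 31390 and 32820 in TGF-β, a log2 fold change of 0.24 (SE 0.07, adjusted p = 0.00755 in the same test, corrected 0.62), which was not called with total counts as the scale (0.12). The neighboring mt-Nd2 had 24822, 20726 and 27758 and then 20964, 20179 and 20028. It was lower by 0.26 on the log2 scale (adjusted p = 0.012 in the same test), with overlapping groups. Without Stem replicate 3 it was at -0.16 and not called (adjusted p = 0.0634 in that edgeR fit).

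The catalytic subunit gene mt-Co1 had 116729, 123401 and 129025 normalized counts in Stem against 108112, 104994 and 106642 in TGF-β. All TGF-β libraries were below Stem, with a log2 fold change of -0.21 (SE 0.04, adjusted p = 0.0011 in edgeR's quasi-likelihood test), and a corrected value of 0.09 that was not called. The genes mt-Co2, mt-Co3, mt-Atp8 and mt-Nd3 were not called, with log2 fold changes of 0.04, 0.08, -0.38 and 0.29. After the correction they were at 0.25, 0.29, 0.28 and 0.94, and mt-Co2, mt-Co3 and mt-Nd3 were called higher. As counted, mt-Nd3 was called higher without Stem replicate 3 (0.47), without a filter (0.30) and with the replicate block (0.30), and mt-Atp8, with 8.63 to 30.4 normalized counts in TGF-β, lower without TGF-β replicate 2 (-0.99). The gene mt-Atp6 was called lower (-0.25, adjusted p = 0.0385 in edgeR's quasi-likelihood test). That call was lost without Stem replicate 3 (-0.15) or TGF-β replicate 1 (-0.22) or 3 (-0.23), by DESeq2 (-0.24), without a filter (-0.24) and with the 6 libraries compared (-0.25). mt-Nd4l was left out by the filter, with 6.28, 7.61 and 7.57 normalized counts in the Stem libraries, 6.47, 2.03 and 2.93 after TGF-β1, and 3.60, 3.95 and 7.02 with PFI-3 added.

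Towards the end of the precursor, mt-Nd4 fell from 15030, 12696 and 16392 normalized counts to 11810, 11308 and 10966, by 0.37 on the log2 scale (SE 0.07, adjusted p = 0.000644 in edgeR's quasi-likelihood test). Its neighbor mt-Nd5 had 27989, 24560 and 31980 in Stem and 25304, 23874 and 24029 in TGF-β. The groups overlapped, and its log2 fold change of -0.21 (adjusted p = 0.0248 in the same test) was not called without Stem replicate 3 (-0.11), TGF-β replicate 2 (-0.18) or TGF-β replicate 3 (-0.19). The last gene, mt-Cytb, the electron-carrying core of complex III, had 35726, 29640 and 39244 in Stem and 22847, 21092 and 21876 in TGF-β. Its groups were well apart, with a decrease of 0.67 on the log2 scale (SE 0.08, adjusted p = 1.14e-05 in the same test) and of 0.38 after the correction, in which mt-Cytb alone of the 12 was called lower. After the correction mt-Nd2, mt-Nd4 and mt-Nd5 were called higher instead, at 0.33, 0.30 and 0.38. On the opposite strand, mt-Nd6 had 12474, 7936 and 13033 in Stem and 11921, 11029 and 11863 in TGF-β, with overlapping groups and no call (0.06). The values from mt-Nd1 to mt-Cytb show that parts of 1 precursor did not change in equal measure between these groups.

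**Figure D5:**
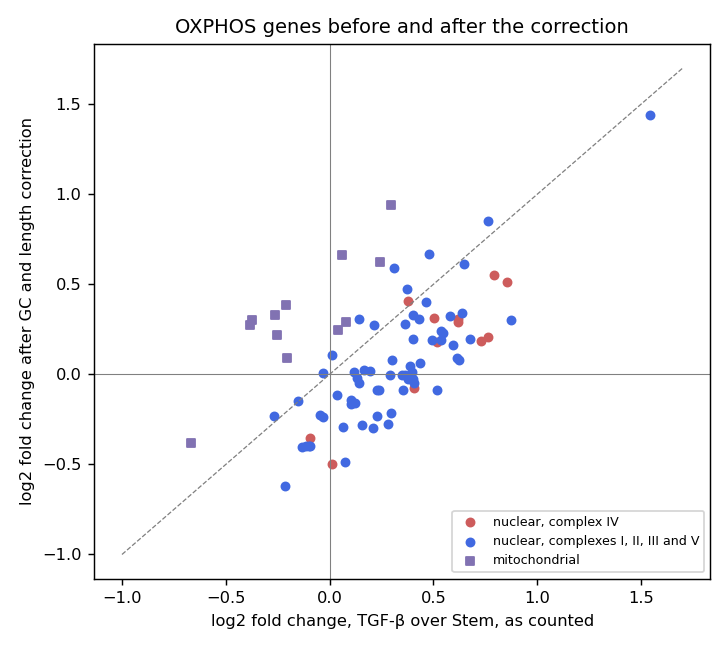
Log2 fold change from Stem to TGF-β of each OXPHOS gene tested, except Cox6a2, as counted (horizontal) and after correction for GC content and transcript length (vertical). The dashed line marks equal values. Mitochondrial genes lie above it and most nuclear genes below it, mt-Cytb is the only mitochondrial gene negative on both axes, and Uqcrq stays above 1.4.

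As a share of all counts, the mitochondrial OXPHOS genes together made up 0.683%, 0.602% and 0.748% in the Stem libraries, with means of 0.678% (SD 0.0733, n = 3) in Stem, 0.540% (SD 0.0119) in TGF-β and 0.615% (SD 0.0197) in Both. Without mt-Co1 the means were 0.363%, 0.289% and 0.308%. Set against the mitochondrial rRNA, they were closer, with 48.0, 46.7 and 44.1 counts per 1000 rRNA counts. The nuclear OXPHOS genes made up 0.423% (SD 0.0136), 0.464% (SD 0.00119) and 0.454% (SD 0.00681).

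Few OXPHOS genes differed between TGF-β and Both beyond the spread between libraries. With PFI-3, 1 of the 90 members rose and 3 fell, where 3.54% of all genes rose, 5.38% fell and 8.92% were called in either direction. Groups did not overlap for 38.9% of the members and for 32.7% of all genes tested. The 4 calls were 2 without TGF-β replicate 2. Cox6a2 was the 1 member past 2-fold, against 0.632% of all genes. It is also among the members that fell, and it passed the filter on low counts through the TGF-β libraries alone, where it was high. The nuclear median was -0.07 on the log2 scale (SD 0.02), with 68 of 78 values negative, and -0.01 after the correction. The mitochondrial median was 0.11 (SD 0.05), with 10 of 12 values positive, and near 0 (0.002) after it. For all genes the median was -0.002, and for those under 1 kb -0.06.

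The member that rose was mt-Co1. Its Both libraries had 130098, 126717 and 131286 normalized counts, all above TGF-β and close to the Stem values, with a log2 fold change of 0.28 (SE 0.04, adjusted p = 0.00245 in edgeR's quasi-likelihood test) that was 0.22 and still called after the correction. mt-Rnr1 and mt-Rnr2 rose by 0.26 and 0.25 in the same test (adjusted p = 0.0131 and 0.00707). The other mitochondrial members ranged from -0.26 for mt-Nd3 to 0.68 for mt-Atp8 without a call, and mt-Cytb was at -0.02.

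The members called lower were all complex IV subunits. Atp5g1 of complex V, at -0.19, was not called. It was called lower by DESeq2 (-0.19), without a filter (-0.19), with the 6 libraries compared (-0.18) and with the replicate block (-0.19). Cox6b2 had 40.5, 39.5 and 46.5 normalized counts in Both, each below all Stem and TGF-β libraries, a log2 fold change of -0.81 (SE 0.16, adjusted p = 0.00881 in edgeR's quasi-likelihood test, corrected -0.73). Cox6a2 had 9.0, 6.91 and 5.27 against 14.0, 31.4 and 33.2 in TGF-β, a log2 fold change of -1.89 (SE 0.40, adjusted p = 0.0181 in the same test, corrected -1.82). It passed the filter on low counts through the TGF-β libraries alone, where it was high, so its call in the filtered fit depended on that group. By DESeq2 no member was past 2-fold, while in the edgeR fit without a filter Cox6a2 was at -1.89 as well (adjusted p = 9.42e-05). It was not called without TGF-β replicate 2 (-1.75) or 3 (-1.68), or without Both replicate 2 (-1.88) or 3 (-1.71), with adjusted p between 0.0503 and 0.0822 in these edgeR fits. Cox7a2 had 1318, 1306 and 1349, all below TGF-β, a log2 fold change of -0.19 (SE 0.05, adjusted p = 0.0202 in the same test). It was not called after the correction (-0.13), nor without TGF-β replicate 1 (-0.18) or 2 (-0.18) or Both replicate 1 (-0.19) or 2 (-0.19). Uqcrq was at -0.14 (adjusted p = 0.0753 in the same test) and Sdha at 0.09 (adjusted p = 0.136), both with groups that did not overlap. With the 6 libraries of this comparison alone in the fit, 4 members rose and 11 fell. The share of all genes called in that fit is not given here.

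The 2 comparisons share the TGF-β libraries, so their values are set side by side without a test. Of the 90 members, 58 were called higher from Stem to TGF-β and not called from TGF-β to Both, 11 were called lower and then not called, and 17 were called in neither. The gene mt-Co1 was lower and then higher, Cox6a2 and Cox7a2 were higher and then lower, and Cox6b2 was not called and then lower. Cox6a2 passed the filter only through the shared TGF-β libraries, where it was high, which favored that order. After the correction, neither the fall of mt-Co1 from Stem to TGF-β nor the fall of Cox7a2 with PFI-3 was called. The fall of Cox7a2 was also not called without some of the single libraries.

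Between Stem and Both, which differ by medium, TGF-β1 and PFI-3, 56 members rose, 10 fell and 24 were not called, where 36.6% of all genes rose, 36.6% fell and 73.3% were called. Members that rose made up 84.8% of the calls, or 69.1% with total counts as the scale, which moved the median of all genes by -0.11. The nuclear median was 0.29 (corrected 0.05), with 55 higher and 8 lower, and the mitochondrial median 0.05 (corrected 0.33), with mt-Nd1 higher and 2 lower. That mitochondrial median had an SD of 0.13 over the Both libraries, was -0.06 with total counts and ran from -0.07 to 0.15 when 1 library was left out, with negative values without Stem replicate 1 (-0.01) or 2 (-0.07) or Both replicate 1 (-0.01). Uqcrq and Cox6a2 were past 2-fold, against 22.8% of all genes, and Cox6a2 was tested only because it passed the filter on low counts in TGF-β. For Cox6a2 the bound was at least 2.2-fold higher in Both than in Stem.

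Promoters of nuclear OXPHOS genes are known for binding sites of NRF1, of the ETS factor GABPA and of YY1, which couple the expression of these genes. RefSeq windows of 300 bases around the start (250 before to 50 after, build GRCm38.p6) were found for 66 of 84 nuclear symbols. The NRF1 core GCGCATGC, searched on both strands, was in 15.2% of these windows and in 3.05% of the windows of all 27025 genes. The ETS core CCGGAAG was in 24.2% and 9.93%, and the YY1 core AAGATGGCG in 10.6% and 1.64%, and 40.9% of the members against 13.6% of all genes had at least 1 of the 3. Among the members that rose from Stem to TGF-β, 49 had a window, and NRF1, ETS and YY1 cores were in 18.4%, 24.5% and 12.2% of them. Among the 14 tested members with a window that did not rise, the shares were 7.14%, 28.6% and 7.14%. The following 120 bases before the start of 5 members that rose show each core in capitals, on the strand of the gene: the palindromic NRF1 site, where the core is found on both strands at overlapping positions, in Atp5g2 (chr15:102671048-102671167) and Atp5k (chr5:108434400-108434519), the ETS core in Cox6a1 (chr5:115348959-115349078, reverse strand of the gene) and Uqcr11 (chr10:80406822-80406941), and a YY1 core beside an ETS core in Atp5j (chr16:84834977-84835096). All 5 genes lie on the minus strand. For each motif, they were the genes with the largest called rises from Stem to TGF-β among those whose 120 bases held it. They were thus ranked on the outcome, and a match is a stretch of letters, not a measured site. After the correction for GC content and length, Atp5j was called lower (0.16 as counted, corrected -0.28) and Uqcr11 was not called (0.52, corrected -0.09).
Atp5g2: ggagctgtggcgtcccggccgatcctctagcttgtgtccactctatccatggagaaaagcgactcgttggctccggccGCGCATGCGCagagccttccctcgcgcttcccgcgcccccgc
Atp5k: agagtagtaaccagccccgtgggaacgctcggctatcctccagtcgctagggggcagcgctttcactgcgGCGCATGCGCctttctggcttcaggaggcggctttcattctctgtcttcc
Cox6a1: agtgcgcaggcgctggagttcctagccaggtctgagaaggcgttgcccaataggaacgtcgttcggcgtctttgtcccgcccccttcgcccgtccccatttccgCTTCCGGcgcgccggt
Uqcr11: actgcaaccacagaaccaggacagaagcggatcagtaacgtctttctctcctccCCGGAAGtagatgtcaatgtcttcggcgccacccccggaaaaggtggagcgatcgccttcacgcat
Atp5j: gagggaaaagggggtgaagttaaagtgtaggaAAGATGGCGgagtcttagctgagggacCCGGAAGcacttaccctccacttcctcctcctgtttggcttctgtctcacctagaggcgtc

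The machinery that makes and supports OXPHOS was examined in 8 lists, from Stem to TGF-β first, and with the 37.3% and 37.7% of all genes called higher and lower as the background. These counts are without the correction for GC content and length. Of 51 assembly factors tested, 36 rose and 3 fell (median 0.35). Among them Coa4 and Cox18, which act in complex IV assembly, rose by 1.28 and 1.16, and Uqcc3, which acts on complex III, fell by 0.21. Of 77 mitochondrial ribosome genes, 56 rose and 3 fell (median 0.32), with Mrpl54 and Mrps18b at 1.00 each and Mrps6 at -1.17. Of 18 mitochondrial chaperones and proteases, 13 rose and 1 fell (median 0.37). The protease Lonp1 went from a mean of 2864 (SD 176) to 8685 (SD 175) normalized counts, a rise of 1.60 on the log2 scale (SE 0.05), and the chaperone Hspa9 from 10388 (SD 577) to 25202 (SD 560), a rise of 1.28 (SE 0.05). Clpx, which unfolds proteins for the protease Clpp, fell by 0.51.

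Regulators of mitochondrial biogenesis went the other way as counted, with 3 of 16 higher and 10 lower (median -0.29). Whether the lists differ beyond the trend on GC content and length was not tested. The 3 that fell past 2-fold, named here after their values were seen, were low in counts. Ppargc1a, which encodes the coactivator PGC-1α, had means of 62.2, 1.01 and 1.19 normalized counts in Stem, TGF-β and Both (adjusted p = 1.31e-07 from Stem to TGF-β in edgeR's quasi-likelihood test), so that it was under the limit of detection after TGF-β1. Its relative Ppargc1b had 33.7, 12.1 and 9.83, and Ppara, a nuclear receptor for fatty acids, 118, 22.1 and 31.6. Of the regulators with higher counts, Gabpb2, a partner of GABPA, fell from a mean of 2484 to 1317 normalized counts, by 0.92 on the log2 scale, and Nfe2l2, a regulator of antioxidant genes, fell by 0.43, whereas Pprc1, a PGC-1-related coactivator, and Gabpb1 rose by 0.22 and 0.18. Of 34 genes for mitochondrial DNA and RNA, 13 rose and 7 fell (median 0.12). The mitochondrial topoisomerase Top1mt rose by 0.85 and the rRNA methyltransferase Tfb1m by 0.82, and Polg and its accessory subunit Polg2, the DNA polymerase, fell by 0.36 and 0.60. Of 17 tricarboxylic acid cycle genes, 8 rose and 2 fell (median 0.10), with Mdh2 at 0.78 and Idh3a at 0.46. Of 23 genes for mobile carriers, ubiquinone synthesis and adenine nucleotide exchange, 15 rose and 4 fell (median 0.28), with the ubiquinone synthesis genes Coq3 and Coq4 at 1.15 and 0.83, Coq6 at -0.47, Coq8a, also low in counts and named after its values were seen, at -1.68, and Etfb, part of an electron carrier of fatty acid oxidation, at -0.53. The mitochondrial rRNAs were the 2 tested of 24 rRNA and tRNA genes. Between TGF-β and Both, 3.54% of all genes rose and 5.38% fell. Of 18 chaperones and proteases 3 fell, Lonp1 by 0.21, Hspa9 by 0.20 and Clpp by 0.20, and of 23 carrier genes 1 fell. Both rRNAs rose, and none of the other 5 lists had a call in edgeR's quasi-likelihood test.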

How the data were processed

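The authors deposited 1 table of raw counts per Ensembl gene for 9 libraries (mouse, paired-end, ribosome-depleted total RNA). The methods name Flexbar trimming and STAR alignment to GRCm39, whereas the submitters' processing notes name HISAT2 2.2.1, SAMtools 1.13 and HTSeq 0.11.3. The strand setting is not given in the sources used here, so overlapping genes may share reads. Symbols came from a table of gene identifiers, and 98.1% of counts fell on genes with one.

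Genes kept by filterByExpr were fitted over all 9 libraries by edgeR 4.0.16 (R 4.3.3, TMM scaling, quasi-likelihood test, Benjamini-Hochberg over 14879 genes, threshold 0.05, past 2-fold meaning a log2 fold change beyond 1). Only group was a term. Normalized counts were scaled to 41184338. Alternatives were DESeq2 1.42.0, other scalings, filters, libraries and covariates. The added GC content and length correction used natural splines per library, for 14843 genes with GENCODE transcripts (GRCm38), all 90 members among them. Lengths and GC content came from the principal transcript of a gene, and copies from the 100-base windows of all its transcripts.

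Genes were named with values if they were past 2-fold in any comparison, mitochondrial, Sdh genes, members of a set of alternative subunit forms, untested, or among the 2 largest called rises and falls of a nuclear complex. The 2 largest called rises and falls of a list with at least 100 mean normalized counts were also named. Ndufa4 and Ndufa4l2 were added, as were Atp5b, Cox6c, Ppargc1a, Ppargc1b, Ppara and Coq8a, after their values were seen. Atp5k, Uqcr11 and Atp5j were chosen for their promoter motifs and the size of their rises, after their values were seen. Members and lists were chosen with earlier results of these data known.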

Additional observations from a re-analysis of the deposited data

How the results depend on the processing

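Counts of members called stayed within 1.5 times under most settings, while medians moved with scaling and most with the correction for GC content and length, which was chosen after seeing the data. From Stem to TGF-β, the nuclear median of 0.36 was 0.24 with total counts and 0.020 with the correction, and 0.34 to 0.39 when 1 library was left out. The mitochondrial median of -0.21 was -0.33 with total counts and 0.30 with the correction, and -0.24 to -0.13 when 1 library was left out, nearest 0 without Stem replicate 3 (-0.13) and TGF-β replicate 1 (-0.14). With the correction, the sign turned for 32 of the 90 members from Stem to TGF-β (26 nuclear and 6 mitochondrial), with 6 going from called higher to called lower and 3 the other way. Among genes named by the rule, a called value, or one that was then called, turned for Sdhb (-0.087), Atp5e (-0.27), Atp5g3 (-0.0028), Cox4i1 (-0.074), Cox6b2 (-0.50), Uqcrh (-0.29), mt-Nd2 (0.33), mt-Co1 (0.093), mt-Atp6 (0.22), mt-Nd4 (0.30) and mt-Nd5 (0.38). From Stem to Both, 26 turned, 6 from called higher to called lower and 1 the other way, and the 26 include mt-Nd2 (0.34), mt-Nd4 (0.28) and mt-Nd5 (0.29). The nuclear median from Stem to Both was 0.18 with total counts and 0.049 with the correction, and the mitochondrial median 0.33. From Stem to Both, members past 2-fold were 2, but 4 without a filter and 1 with 6 libraries.

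Between TGF-β and Both, the 4 members called were 15 with the 6 libraries compared, where no share of all genes is given. They were 2 to 3 when 1 library was left out, with 2 without TGF-β replicate 2. The 1 member past 2-fold was 0 by DESeq2 and 0 to 1 when 1 library was left out, with 0 without TGF-β replicate 2 or 3 or Both replicate 2 or 3. With the correction the nuclear median was -0.013 and the mitochondrial median 0.0023. The share of counts on mitochondrial OXPHOS genes was 0.814%, 0.630% and 0.733% in Stem, TGF-β and Both with counts on named nuclear genes as the denominator. The cause was not tested for any of these.

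Replicate numbers are shared between groups in the labels. Deviations of the 9 same-numbered pairs had correlations of -0.06 to 0.16, 3 of them over 0.1, and a library correlated best with its own number in 8 of 18 cases, so the numbers were not taken to pair the samples. With the replicate block, 9 of the 90 members were called between TGF-β and Both, 1 higher and 8 lower, where 15.5% of all genes were called. Members with few counts, such as mt-Nd4l and Cox7a1, were left out by the filter and were tested in the fit without one.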
